A study of Drosophila melanogaster with 21 samples.

Results

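Depletion of YT521 (Ythdc1), the nuclear reader of N6-methyladenosine (m6A), was compared with the control in S2R+, an embryonic cell line of Drosophila melanogaster with features of macrophages. The 6 libraries were chosen by their titles, 3 from the YT521 depletion and 3 from the control, out of 21 libraries in all. The other 15 came from depletions of Ime4 (Mettl3), CG7818 (Mettl14), both of these genes (the double depletion), Fl2d and CG6422 (Ythdf), with 3 libraries each. For the double depletion the genotype label names only Ime4 while the title names both genes, and the title was followed. Cells of all groups were kept at room temperature and differ in the labels only in the gene depleted. The means of depletion, the time after it and whether replicates came from separate cultures are not stated in the labels, so p-values measure the spread between these libraries, which may be technical. As S2R+ is 1 cell line, the values describe that line.

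m6A is written into mRNA by a complex built around Mettl3 and Mettl14, with fl(2)d, vir, nito, Flacc and Hakai as further members. Proteins with a YTH domain bind the modified base. In the fly, Ythdc1 is the nuclear YTH protein and Ythdf the cytoplasmic one. Ythdc1 is best known for its part in alternative splicing, with Sxl, the master gene of sex determination, as the classic target. The comparison asks which transcripts change in amount when the nuclear reader is depleted. The counts are per gene and do not separate spliced forms, so splicing is not measured here.

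The libraries of the YT521 depletion and the control held 20819785 to 28296393 counts assigned to genes, and 10543 to 10963 genes had a count. Levels are given as CPM (the count of a gene relative to the scaled library total, times 1e6), and values after ± are standard deviations over n = 3 libraries. 8360 genes passed the filter on low counts and were tested in edgeR's quasi-likelihood test over all 7 groups. A gene was called at a p under 0.05 after Benjamini-Hochberg adjustment across all of them, which is the adjusted p of this text. YT521 replicate 2 stands apart in mitochondrial RNA. The mitochondrial large ribosomal RNA, mt:lrRNA, took 2.89% of its gene counts, against 8.26% and 7.67% in YT521 replicates 1 and 3 and 8.23%, 6.58% and 8.12% in the control replicates. All mitochondrially encoded genes together took 15.1%, 4.99% and 14.9% in the YT521 replicates and 15.2%, 11.9% and 14.6% in the control replicates. The groups overlap in both shares (exact two-sided permutation p = 0.7 and 0.8, where 3 against 3 libraries cannot go below 0.10). Results are therefore given with and without YT521 replicate 2, whose part in them beyond that was not tested.

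The labelled cell type was checked against markers. All 13 markers of plasmatocytes, the macrophages of the fly, were found, and their summed level was 790 to 884 CPM in the YT521 libraries and 853 to 946 CPM in the control. Of the 12 tested, 0 were called higher and 1 lower (Pxn). On a longer list of plasmatocyte and macrophage markers, 0 of 14 tested were called higher and 2 lower (Pxn and Tig), and the summed level was 904 to 954 CPM in YT521 and 1005 to 1072 CPM in the control, without overlap. The part of this difference in the results was not tested. The lamellocyte marker atilla and the fat body markers Lsp1alpha and Lsp2 were listed at 0 counts in all 6 libraries. The other crystal cell and lamellocyte, muscle, and neuron and glia markers tested had no call in edgeR's test. Genes on the longer lists of other cell types were not absent. Crystal cell and lamellocyte genes summed to 1357 to 1460 CPM in YT521 and 1374 to 1462 CPM in the control. Muscle genes summed to 429 to 545 and 461 to 507 CPM, and germline and follicle genes to 158 to 165 and 176 to 181 CPM. Of 9 genes on the longer list of germline and follicle markers, 1 was called higher (pgc, log2 fold change 1.02, from 1.59 ± 0.0415 to 3.25 ± 0.373 CPM) and 1 lower (bam, -0.21). Over all genes tested, 3.27% were called higher and 3.25% lower. In bulk RNA, fewer cells of a type and less RNA per cell cannot be told apart.

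Ythdc1 itself was checked first. Its level was 104, 78.3 and 77.9 CPM in the YT521 libraries and 374, 403 and 396 CPM in the control libraries, a mean of 86.7 ± 14.9 against 391 ± 15 CPM. The depleted libraries thus kept 22.2% of the control level, and the groups lie far apart. The log2 fold change was -2.17 (SE 0.08, adjusted p = 1.07e-13), and it lay between -2.33 and -2.10 with any 1 of the 6 libraries left out. Ythdc1 (FBgn0027616) lies on 3L:3370451-3374170, minus strand (build BDGP6.54). In the other depletions its mean was 401 to 507 CPM, so every other group was at or above the control.

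Of the writer complex and the cytoplasmic reader, 2 genes were called, both higher and by small amounts. fl(2)d, a regulator of splicing in the writer complex, stood at 153, 141 and 158 CPM against 126, 126 and 124 CPM in the control libraries (log2 fold change 0.27, SE 0.06, adjusted p = 0.0139). nito, an RNA-binding member of the complex, stood at 108, 112 and 114 CPM against 98.5, 99.8 and 97.5 CPM (0.17, SE 0.04, adjusted p = 0.0182). Neither gene overlaps between the groups, but neither call was stable. For fl(2)d the adjusted p was 0.0671 with YT521 replicate 1 left out, 0.0580 with YT521 replicate 3, 0.0526 with Control replicate 2 and 0.0581 with Control replicate 3. That of nito was lost without YT521 replicate 2 (0.0677) or 3 (0.0615) or any 1 control library (0.0512 to 0.0701), with no filter on low counts (0.0757) and in a fit of the 2 groups alone (0.0574). The catalytic subunit Mettl3 (65.2 ± 2.90 against 61.6 ± 1.52 CPM, adjusted p = 0.724), its partner Mettl14 (68.0 ± 2.27 against 64.5 ± 1.44 CPM, 0.654), Ythdf (99.8 ± 2.10 against 98.2 ± 7.04 CPM, 0.927), vir (log2 fold change -0.10), Flacc (0.06) and Hakai (0.12) did not pass the test.

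Across all genes the depletion gave many small changes. Of the 8360 genes tested, 545 (6.52%) were called, 273 higher (3.27%) and 272 lower (3.25%). The median log2 fold change was 0.36 among those called higher, -0.30 among those called lower and 0.01 over all genes tested. Of the 545, 406 moved by less than 0.5 on the log2 scale, and at least a 2-fold change was seen in 23 called higher and 12 called lower. Called genes almost always had groups without overlap (543 of 545), as did 27.0% of all genes tested. An exon that overlaps another gene in the annotation was present in 181 of the 545, and in 3343 of the 8360 genes tested. Counts of such genes may hold reads of the other gene. Besides genes marked so below, this holds for Diap1, Dark, Phb2, Gel, Mmp1, Mmp2, Pxn, Pcyt2, Fer1HCH, GstE10, Dscam1 and SCAR, among others.

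The number of calls depends on single libraries. Without YT521 replicate 2 it was 328 of 8445 genes tested (3.88%), with 175 higher (2.07%) and 153 lower (1.81%), and 303 of the 545 were among them. All 545 kept their sign there. Leaving out YT521 replicate 1 gave 295 calls, Control replicate 2 gave 243 and Control replicate 3 gave 321, while leaving out YT521 replicate 3 gave 492 and Control replicate 1 gave 376. YT521 replicate 2 was also left out together with Fl2d replicate 1, the other library with little mt:lrRNA. Then 608 of 8425 genes tested were called, 290 higher and 318 lower, and 431 were among the 545. 176 genes, 95 higher and 81 lower, were called in each of the 13 alternative settings, and the genes described with their values below are among these unless stated.

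**Figure D1:**
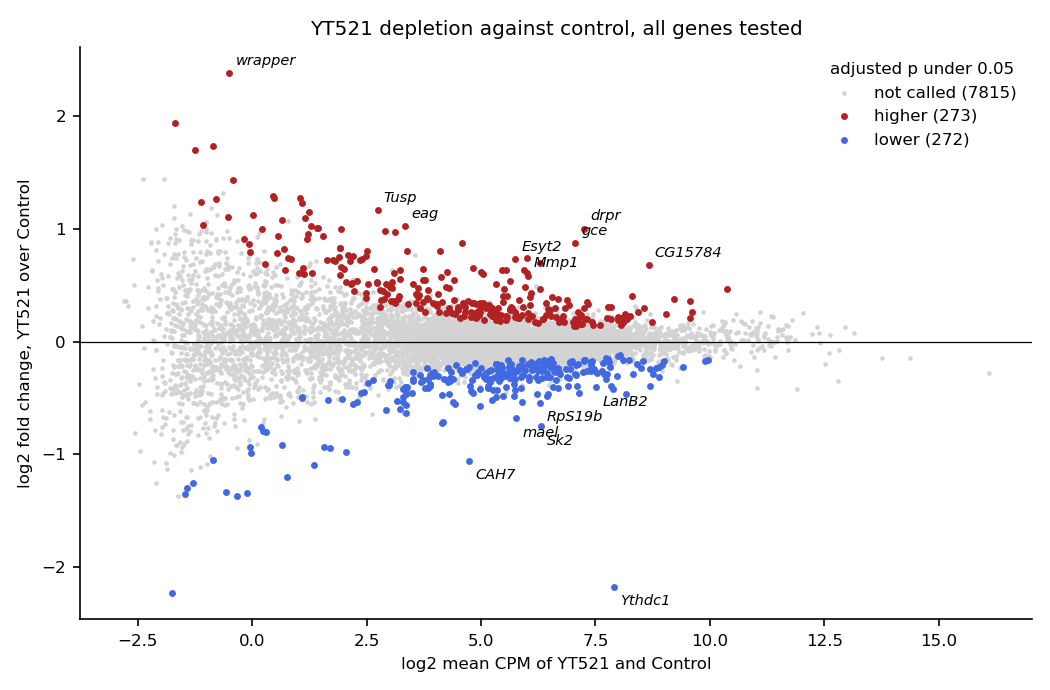
Each point is 1 of the 8360 genes tested, by its log2 mean CPM over the YT521 and control libraries (horizontal) and its log2 fold change (vertical), with the 273 genes called higher in red, the 272 called lower in blue and the rest in grey. Most called genes lie within 0.5 of 0, and Ythdc1 at -2.17 stands apart among well expressed genes.

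The clearest rise was that of drpr, which encodes Draper, the receptor with which phagocytes recognise and engulf dying cells. It stood at 196, 203 and 208 CPM in the YT521 libraries and at 101, 104 and 98.7 CPM in the control (203 ± 5.98 against 101 ± 2.4). Each depleted library thus held about double the level of any control library (log2 fold change 1.0, SE 0.04, adjusted p = 3.39e-13, and 6.79e-12 without YT521 replicate 2). drpr (FBgn0027594) lies on 3L:1715595-1731107, minus strand, and an exon of it overlaps another gene in the annotation, so its count may hold reads of that gene. NimC4, which encodes a further receptor for apoptotic cells, rose from 15.8, 16.9 and 14.1 to 20.7, 22.6 and 22.6 CPM (0.49, SE 0.09, adjusted p = 0.00221). ced-6, the adaptor that acts downstream of Draper, was called slightly lower (363, 326 and 356 against 391, 406 and 379 CPM, -0.17, adjusted p = 0.0382), a call lost without YT521 replicate 2 or 3 or any 1 control library. In all, 2 of the 14 engulfment genes tested were called higher and 1 lower, against 3.27% and 3.25% of all genes, with a median log2 fold change of -0.01 against 0.01. Without YT521 replicate 2, 2 were higher and 0 lower. With Fl2d replicate 1 also left out, 2 were higher and 2 lower.

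Genes of apoptosis moved both ways. Drice, the main effector caspase, stood at 190, 166 and 180 CPM against 140, 139 and 140 CPM (log2 fold change 0.35, SE 0.04, adjusted p = 4.55e-05). Diap1, the inhibitor that holds caspases in check, rose as well, from 273 ± 6.55 to 314 ± 7.49 CPM (0.20, adjusted p = 0.000961). egr, the fly's tumour necrosis factor ligand, went from 102 ± 3.08 to 73.8 ± 3.78 CPM (-0.46, adjusted p = 0.000257), and Dark, the scaffold of the apoptosome, from 47.7 ± 1.57 to 38.3 ± 1.07 CPM (-0.32, adjusted p = 0.00584). p53 was called higher (0.23, adjusted p = 0.0357) in 7 of the 13 alternatives. Of the 18 apoptosis genes tested, 3 were called higher and 2 lower (median 0.00), beside 3.27% higher and 3.25% lower of all genes tested. There were 2 and 2 without YT521 replicate 2, beside 2.07% and 1.81%. With Fl2d replicate 1 also left out, there were 2 and 3.

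The next most certain rise was in gce, one of the receptors of juvenile hormone. Its level was 177, 161 and 177 CPM against 96.3, 91.4 and 94.0 CPM in the control, with no overlap (log2 fold change 0.87, SE 0.05, adjusted p = 5.32e-10). gce (FBgn0261703) lies on X:15297766-15319074, plus strand, and has an exon that overlaps another gene. RabX1, a small GTPase of endosomes, went from 34.3 ± 0.786 to 53.5 ± 4.6 CPM (0.64, adjusted p = 6.86e-07). Esyt2, a tether between the endoplasmic reticulum and the plasma membrane, stood at 69.8, 61.8 and 69.7 CPM against 42.4, 45.8 and 32.6 CPM (0.73, SE 0.11, adjusted p = 0.000252), so that even the lowest depleted library exceeded every control library. Phb2, a prohibitin of the inner mitochondrial membrane, went from 272 ± 9.05 to 361 ± 4.05 CPM (0.41, adjusted p = 5.77e-06). The non-coding RNA lncRNA:mimi rose from 59.8 ± 5.26 to 97.0 ± 9.95 CPM (0.70, adjusted p = 2.05e-05).

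Among less abundant genes, wrapper, a cell adhesion protein of glia, had the highest fold change of those named. Its level was 1.27, 1.09 and 1.22 CPM against 0.221, 0.243 and 0.198 CPM in the control libraries (log2 fold change 2.38, SE 0.29, adjusted p = 2.05e-05), which remains a low level in both groups. eag, a voltage-gated potassium channel, roughly doubled, from 7.04, 5.84 and 7.17 CPM to 13, 13.9 and 13.7 CPM (1.03, SE 0.14, adjusted p = 6.52e-05). Gs2, glutamine synthetase 2, rose from 7.63 ± 0.956 to 11.2 ± 0.755 CPM (0.55, adjusted p = 0.00612). wrapper and Gs2 were on a list of neuron and glia genes, of which 5 were tested, 2 called higher and 1 (moody) lower, beside 3.27% and 3.25% of all genes tested. The 2 were still higher, and moody was not called, without YT521 replicate 2. With Fl2d replicate 1 also left out, 2 of the list were higher and 1 lower. The neuronal and glial cell markers elav, brp, Syt1, VGlut, Gad1 and repo were low, with a summed level of 16.8 to 21.9 CPM in YT521 and 18.2 to 20.4 CPM in the control, and the ranges overlap. The uncharacterised genes CG4793 (17 ± 1.96 to 31.2 ± 2.83 CPM, adjusted p = 8.37e-06), CG42300 (5.89 ± 0.35 to 11.5 ± 0.610 CPM, adjusted p = 1.95e-06) and CG15784 (311 ± 52.2 to 498 ± 44.4 CPM, adjusted p = 0.000252) also rose. The plot of CPM in every library shows the 10 genes with the smallest p.

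**Figure D2:**
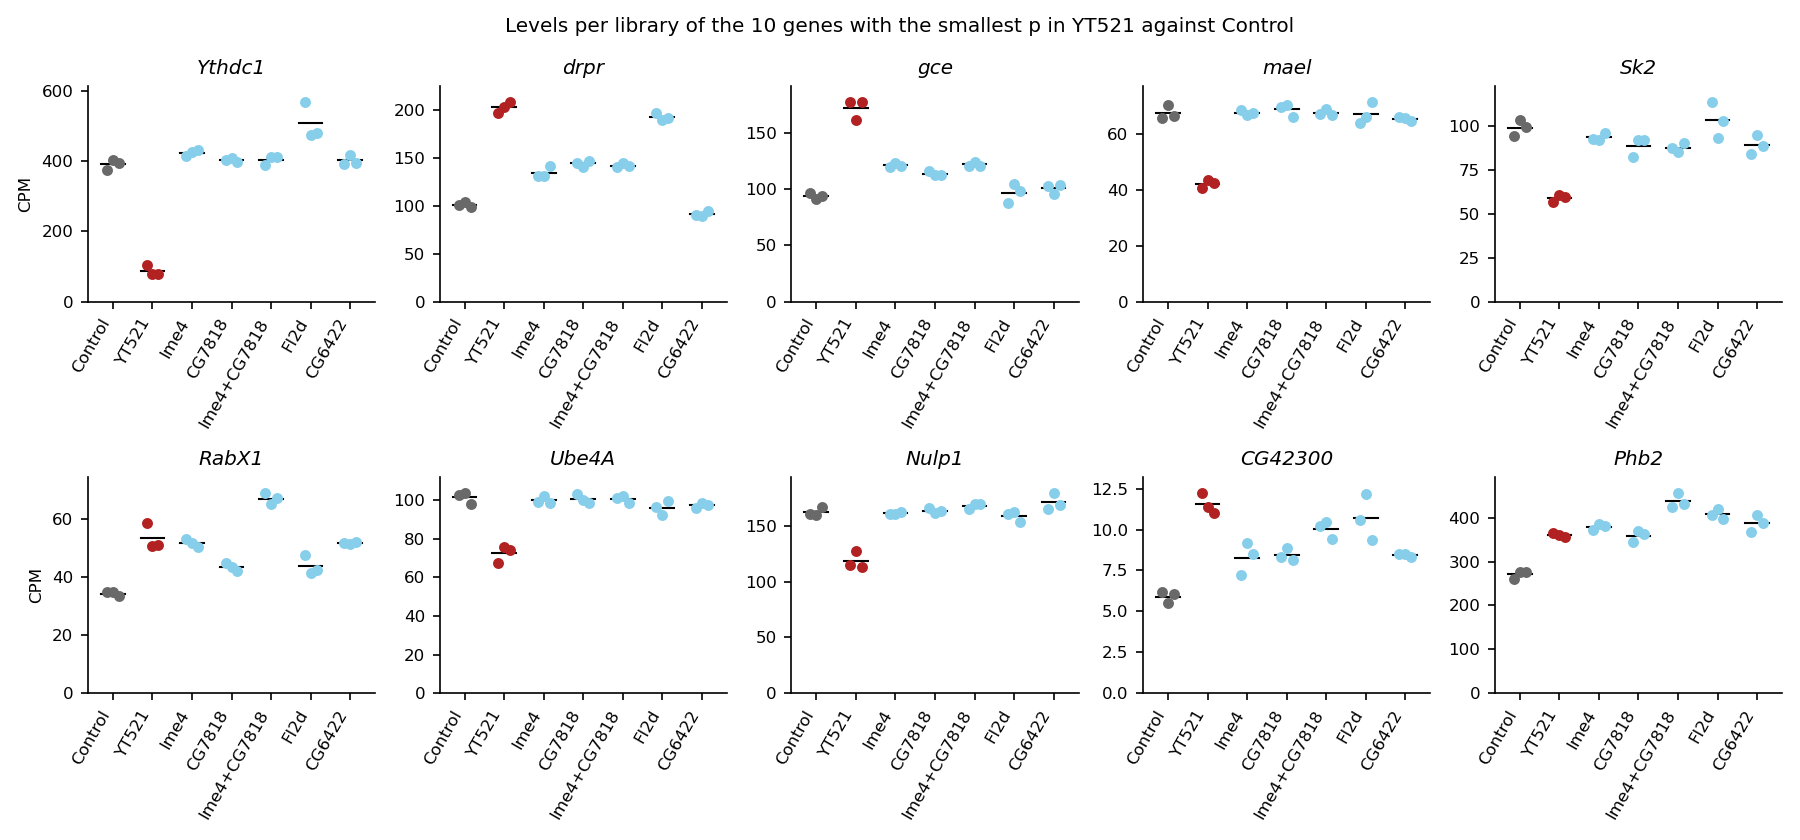
CPM in each of the 3 libraries (points) and the group mean (line) of the 7 groups, for the 10 genes with the smallest p in YT521 (red) against Control (dark grey), with the other depletions in blue. In all 10 panels the YT521 points lie clear of the control points, and for Ythdc1, mael, Sk2, Ube4A and Nulp1 they lie below every other group.

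Among the genes that fell, the best separated after Ythdc1 was mael, which encodes Maelstrom, a factor in the silencing of transposons by piRNAs. Its level was 40.5, 43.4 and 42.3 CPM in the YT521 libraries and 65.5, 70.4 and 66.2 CPM in the control libraries (log2 fold change -0.68, SE 0.05, adjusted p = 6.11e-09, and 4.47e-08 without YT521 replicate 2). mael (FBgn0016034) lies on 3L:22721203-22726234, plus strand, with an exon that overlaps another gene. Of 13 nuclear transposon silencing factors tested, 2 were called lower (mael and del) and 1 higher (moon), with a median of 0.06. All genes tested had 3.25% lower and 3.27% higher. Without YT521 replicate 2, 2 of the 13 were lower and 0 higher, also with Fl2d replicate 1 left out. Only mael of the 13 was called in every alternative. Sk2, a sphingosine kinase, fell from 94.3, 104 and 99.3 CPM to 56.6, 60.7 and 59.4 CPM (-0.75, SE 0.06, adjusted p = 1.99e-07). It lies on 3L:3047087-3050159, plus strand. In mael and Sk2 each depleted library was below every control library. Ube4A, a ubiquitin chain elongation factor, stood at 67.3, 75.7 and 74.5 CPM against 103, 104 and 98.4 CPM (-0.49, SE 0.05, adjusted p = 8.30e-07). Nulp1 fell from 163 ± 3.93 to 119 ± 8.11 CPM (-0.45, adjusted p = 1.72e-06). CAH7, a carbonic anhydrase, stood at 17.5, 14 and 20.4 CPM against 39, 42 and 26.5 CPM (-1.06, SE 0.20, adjusted p = 0.00207), with a wide spread in the control but no overlap. RpS19b, one of 2 gene copies for ribosomal protein S19, fell from 93.1 ± 7.10 to 63.9 ± 4.78 CPM (-0.54, adjusted p = 0.000215), a value that is uncertain where reads fit both copies.

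The extracellular matrix list moved mainly down. Of 17 genes tested, 6 were called lower and 1 higher, against 3.25% and 3.27% of all genes tested, and their median log2 fold change was -0.13 against 0.01 over all. The laminin chains LanA, LanB1 and LanB2, parts of the core of basement membranes, were all lower. LanB2 (the gamma chain) stood at 147, 167 and 160 CPM against 201, 222 and 204 CPM (-0.40, SE 0.06, adjusted p = 0.000178), and LanB1 (the beta chain) at 116, 123 and 122 CPM against 142, 154 and 144 CPM (-0.28, SE 0.05, adjusted p = 0.00215). LanA (an alpha chain) went from 467 ± 25.3 to 356 ± 30.0 CPM (-0.39, adjusted p = 0.0199), which rose to 0.111 with YT521 replicate 1 left out, 0.104 with Control replicate 2 and 0.0558 with Control replicate 3. Tig, tiggrin, a matrix ligand of integrins, went from 135 ± 9.92 to 103 ± 10.4 CPM (-0.40, adjusted p = 0.00448). Pxn, peroxidasin (-0.28, adjusted p = 0.0386), and the matrix protease Mmp2 (-0.24, adjusted p = 0.0379) were called lower with less support, in 9 and 8 of the 13 alternatives. The member called higher was the protease Mmp1, at 71.1, 76.2 and 86.1 CPM against 59.0, 45.1 and 51.9 CPM (0.58, SE 0.11, adjusted p = 0.00190), so that the 2 matrix metalloproteases of the fly moved in opposite directions. Without YT521 replicate 2, 1 was higher and 5 lower with a median of -0.19, and with any 1 library left out between 3 and 5 were lower. With YT521 replicate 2 and Fl2d replicate 1 both left out, 1 was higher and 7 lower. Integrins and their links to actin, of which 18 were tested, had 0 calls in edgeR's test and 0 in DESeq2, with 4 at an unadjusted p under 0.05.

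The lists of guidance genes and actin regulators also held more genes called lower than higher. Of 26 axon guidance and neuronal adhesion genes tested, 5 were called lower and 1 higher (median -0.11), beside 3.25% and 3.27% of all genes tested. The netrin receptor unc-5 went from 72.0, 60.5 and 67.1 CPM to 48.7, 53.2 and 47.6 CPM (-0.41, SE 0.06, adjusted p = 0.000345). The teneurin Ten-m fell from 157 ± 5.68 to 119 ± 11.7 CPM (-0.40, adjusted p = 0.00769), while fra (-0.41), Dscam1 (-0.31) and robo2 (-0.29) kept their calls in 8, 11 and 9 of the 13 alternatives. The guidance ligand sli was called higher, 64.0 ± 6.21 against 49.4 ± 4.98 CPM (0.37, adjusted p = 0.0218), in 11 of 13. Of 26 genes of the actin cytoskeleton, 6 were called lower and 1 (sn, fascin, in 7 of the 13 alternatives) higher (median -0.04), beside the same shares. Gel, gelsolin, which severs actin filaments, went from 320, 357 and 319 CPM to 247, 241 and 233 CPM (-0.47, SE 0.05, adjusted p = 1.08e-05), and ena, which promotes filament elongation, from 279 ± 2.77 to 226 ± 14.4 CPM (-0.30, adjusted p = 0.00517). Arp2 (-0.20), Arp3 (-0.16), SCAR (-0.16) and WASp (-0.27), which act in branched actin assembly, were called lower by small amounts in 12, 4, 7 and 11 of the 13 alternatives. Without YT521 replicate 2 the guidance list held 1 higher and 3 lower, and the actin list 1 and 3. With Fl2d replicate 1 also left out, the guidance list held 2 higher and 5 lower, and the actin list 1 and 4.

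Among signalling genes, Su(fu), an inhibitor of Hedgehog signalling, fell from 79.6, 88.3 and 91.8 CPM to 61.1, 64.1 and 62.5 CPM (-0.47, SE 0.07, adjusted p = 0.000179). The kinase fu (-0.17) and the co-receptor boi (-0.38) of the same pathway were called lower in 4 and 11 of the 13 alternatives, so 3 of 9 Hedgehog genes tested were lower and 0 higher, beside 3.25% and 3.27% of all genes tested. DESeq2 called 0 higher as well, and 5 of the 9 had an unadjusted p under 0.05 in either direction. 1 of the 9 was lower without YT521 replicate 2, and 3 were with Fl2d replicate 1 also left out. The receptor N, Notch, went from 131 ± 3.35 to 105 ± 3.10 CPM (-0.32, adjusted p = 0.000252). With dx it made 2 of 16 Notch pathway genes lower and 0 higher, beside 3.25% and 3.27% of all genes tested. Of the 16, 1 was lower without YT521 replicate 2, and 2 were with Fl2d replicate 1 also left out. kibra, an upstream activator of the Hippo pathway, fell from 89.3 ± 3.48 to 71.3 ± 4.62 CPM (-0.32, adjusted p = 0.00121). Dad, the inhibitory Smad, fell from 11.4 ± 0.257 to 7.50 ± 1.06 CPM (-0.60, adjusted p = 0.00162). In edgeR 4 of 23 genes of the EGFR, Ras and MAPK pathway were called lower (pnt, aop, Sos and Pvr, between -0.26 and -0.19). 0 were called higher, beside 3.25% lower and 3.27% higher of all genes tested. DESeq2 called 5 lower and 0 higher, and 5 of the 23 had an unadjusted p under 0.05. None of those 4 was called in every alternative, and with 1 library left out between 0 and 5 of the list were lower. Dad and babo were the 2 called lower of 13 TGF-beta and BMP genes tested, with 0 higher and a median of -0.13, beside 3.25% and 3.27% of all genes tested. Of the 13, 1 was lower without YT521 replicate 2, and 1 with Fl2d replicate 1 also left out. The lists of JAK/STAT (10 tested), Wnt (17) and insulin and TOR (22) genes held 0, 1 and 2 calls, beside 6.52% of all genes tested.

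Some immune and stress genes rose. pirk, which dampens the Imd pathway, stood at 56.5, 63.1 and 57.2 CPM against 47.2, 32.1 and 43.2 CPM (log2 fold change 0.53, SE 0.11, adjusted p = 0.00455). On the list of Imd pathway and effector genes, PGRP-SA (0.42), PGRP-SC2 (1.04) and the antimicrobial peptide gene AttD (0.53) were also called higher. The list goes beyond Imd signalling itself, and PGRP-SA acts in the Toll pathway. PGRP-SC2 was low, at 0.313 ± 0.0717 CPM in the control and 0.631 ± 0.175 CPM in YT521, and was called in 4 of the 13 alternatives. In all, 4 of the 21 genes tested on the list were higher and 0 lower (median 0.06), beside 3.27% and 3.25% of all genes tested. DESeq2 called 3 higher and 0 lower, and 5 of the 21 had an unadjusted p under 0.05. Only pirk of the 4 was still called without YT521 replicate 2. With Fl2d replicate 1 also left out, 2 of the 21 were higher and 0 lower. Among 11 Toll pathway genes, dl was called higher (0.17) and its receptor Tl lower (-0.36), beside 3.27% and 3.25% of all genes tested. Neither was called without YT521 replicate 2. With Fl2d replicate 1 also left out, 0 of the 11 were higher and 1 lower. Among glutathione transferases, which conjugate glutathione to toxic compounds, 3 of 26 were higher and 1 lower (median 0.10), beside the same shares. GstD1 rose from 58.0 ± 1.71 to 78.4 ± 2.48 CPM (0.43, adjusted p = 0.000345) and GstD2 from 1.20 ± 0.214 to 2.91 ± 0.120 CPM (1.27, adjusted p = 0.000222). GstD3 (0.34) and GstE10 (-0.47) were called in 11 and 12 of the 13 alternatives. These genes lie in clusters of similar copies, so reads that fit several of them make single values uncertain. crc, the fly's ATF4 and a transcription factor of the integrated stress response, stood at 926, 806 and 842 CPM against 696, 656 and 652 CPM (0.36, SE 0.06, adjusted p = 0.000821). Together crc and GstD1 were the 2 called, both higher, of 24 genes on the list of unfolded protein and integrated stress responses, and 0 were lower (0 also in DESeq2, with 7 at an unadjusted p under 0.05 in either direction). That is 8.33% of the list, near the 6.52% of all genes tested. The co-chaperone Stip1 (315 ± 7.74 to 378 ± 6.69 CPM, adjusted p = 0.000320) was the 1 call among 23 heat shock and chaperone genes. That is 4.35%, beside 6.52% of all genes tested. Fer1HCH, a ferritin chain, rose from 715 ± 15.6 to 857 ± 39.7 CPM (0.26, adjusted p = 0.00247). On the list of antioxidant response and metal handling, Fer1HCH and GstD1 were the 2 called higher of 21 genes tested. MTF-1 (-0.19) and Ctr1A (-0.17) were called lower, in 9 and 6 of the 13 alternatives, beside 3.27% higher and 3.25% lower of all genes tested. Without YT521 replicate 2, 2 of the 21 were higher and 1 lower. With Fl2d replicate 1 also left out, 3 were higher and 2 lower.

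In lipid and sterol metabolism 6 of 23 genes were called lower and 0 higher (median -0.02), beside 3.25% and 3.27% of all genes tested, while DESeq2 called 5 lower and 1 higher, and 7 had an unadjusted p under 0.05. Pcyt2, which activates ethanolamine for phosphatidylethanolamine synthesis, went from 3.72, 3.51 and 3.21 CPM to 1.27, 1.81 and 1.79 CPM (-1.09, SE 0.21, adjusted p = 0.00232). eas, the ethanolamine kinase of the preceding step, went from 84.1 ± 8.31 to 66.4 ± 3.25 CPM (-0.34, adjusted p = 0.00797), a call lost only without Control replicate 2 (0.0811). The calls of Acsl (-0.33), bgm (-0.92), mdy (-0.27) and FASN2 (-0.49) were all lost without YT521 replicate 2, which left 2 lower. With Fl2d replicate 1 also left out, 4 of the 23 were lower and 0 higher.

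**Figure D3:**
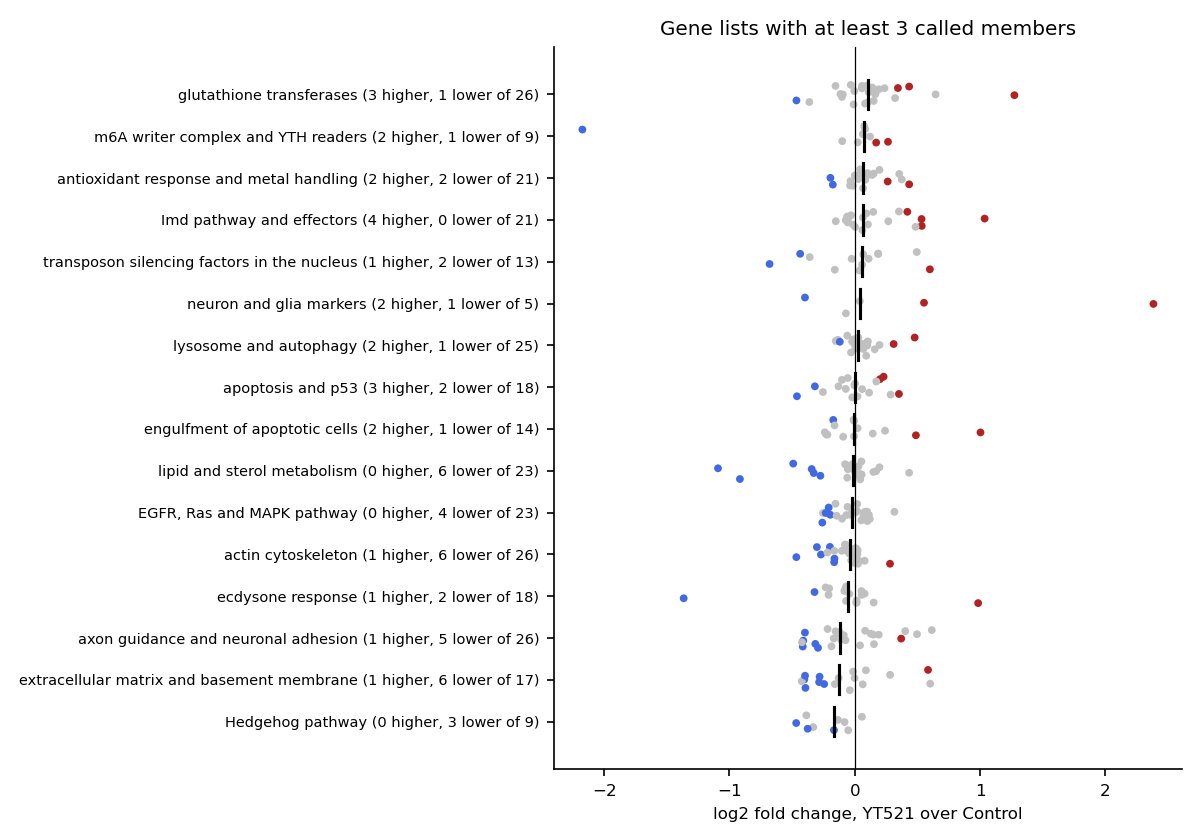
Log2 fold change of YT521 over Control (horizontal) of each tested member (points) of the gene lists with at least 3 called members, ordered by the list's median (black line), with members called higher in red, lower in blue and not called in grey. The extracellular matrix list has 6 blue points and 1 red, and the glutathione transferases 3 red and 1 blue.

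Sex determination, the process in which the nuclear reader is best known, was examined by gene level only. Sxl stood at 8.90, 6.63 and 8.79 CPM against 11.8, 11.3 and 11.1 CPM, with no overlap (log2 fold change -0.49, SE 0.13, adjusted p = 0.0206). The adjusted p was 0.111 with YT521 replicate 2 left out, 0.0662 with Control replicate 1 and 0.0694 with Control replicate 2, and an exon of Sxl overlaps another gene. ssx, a close relative of Sxl, stood at 112, 114 and 119 CPM against 128, 130 and 133 CPM (-0.18, adjusted p = 0.0273), a call kept in 8 of the 13 alternatives. Downstream in the cascade, tra (16.7 ± 2.06 against 16.4 ± 0.439 CPM, adjusted p = 0.871) and its partner tra2 (45.5 ± 1.70 against 49.0 ± 2.54 CPM, adjusted p = 0.290) did not pass the test, nor did msl-2, the Sxl-repressed gene of dosage compensation (45.2 ± 2.60 against 46.1 ± 2.41 CPM, adjusted p = 0.801). Of 16 genes of sex determination and dosage compensation tested, 2 were lower and 0 higher in edgeR and in DESeq2, with 5 at an unadjusted p under 0.05, beside 3.25% lower and 3.27% higher of all genes tested. None of the 16 was called in edgeR without YT521 replicate 2. With Fl2d replicate 1 also left out, 2 were lower and 0 higher. On the X chromosome 3.46% of 1446 genes tested were called higher and 2.49% lower, near the shares over all genes, and their median log2 fold change was 0.00.

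The lists of RNA handling and of growth held few calls, beside 6.52% of all genes tested. In the shorter lists a count of 0 or 1 does not set them apart from that share. Of 25 genes of mRNA export and 3' end processing 1 was called (Hel25E, lower), and of 27 genes of mRNA decay 1 (Not1, lower). hnRNP proteins (12 tested), the exosome (13), aminoacyl-tRNA synthetases (17), proteasome subunits (31) and ribosome biogenesis (26) had 0 calls in edgeR and 0 in DESeq2, with 0, 1, 0, 1 and 5 genes at an unadjusted p under 0.05. Among 48 cell cycle and DNA replication genes 1 was called (RnrL, lower). Cytosolic ribosomal proteins had 1 higher and 1 lower of 80, with a median log2 fold change of 0.08, which was 0.01 without YT521 replicate 2. The nuclear-encoded respiratory chain had 0 calls of 63 in edgeR and 1 in DESeq2, with 9 at an unadjusted p under 0.05 and a median of 0.08 (0.04 without YT521 replicate 2). Of 17 mitochondrially encoded genes tested, 0 were called in edgeR or in DESeq2 and 2 had an unadjusted p under 0.05. Their median was -0.20 with all libraries and 0.16 without YT521 replicate 2, so its sign rests on that library.

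The calls differed with the length of the gene. The part of length in the list counts above was not tested. Genes were put into 4 classes of about equal size by the summed length of their merged exons. In the class with the shortest (up to 1239 bases) 4.59% were called higher and 0.83% lower, with a median log2 fold change of 0.08. In the class with the longest (over 3433 bases) 2.89% were higher and 6.07% lower, with a median of -0.05. The median exon length was 1665 bases among genes called higher, 3320 among those called lower and 2024 over all genes with a known length. Genes called lower also had more introns, a median of 5 against 2 in those called higher and 3 over all. Within classes of length, the median log2 fold change changed little with intron number. With 0 or 1, 2 to 3 and over 3 introns it was 0.08, 0.08 and 0.07 in the shortest class. In the longest it was -0.05, -0.03 and -0.05. The share called lower was 2.73%, 3.22% and 4.42% in the third class, and 6.12%, 1.82% and 6.76% in the longest. In each YT521 library the median of the longest class lay below that of the shortest. The difference was -0.20, -0.14 and -0.05 in replicates 1, 2 and 3, as log2 CPM relative to the control mean, while each control library against the mean of the rest gave 0.01, 0.01 and -0.03. Without YT521 replicate 2 the medians of the shortest and longest classes were 0.07 and -0.05. Against the other depletions these medians were closer to each other or in the opposite order. They were -0.02 and 0.05 in YT521 against CG6422, and 0.03 and -0.02 in YT521 against the double depletion. Among genes whose IDs have no entry in the annotation used here, 2 of 177 were called higher and 12 lower, beside 3.27% and 3.25% of all genes tested. These were 0 and 2 without YT521 replicate 2, beside 2.07% and 1.81%.

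**Figure D4:**
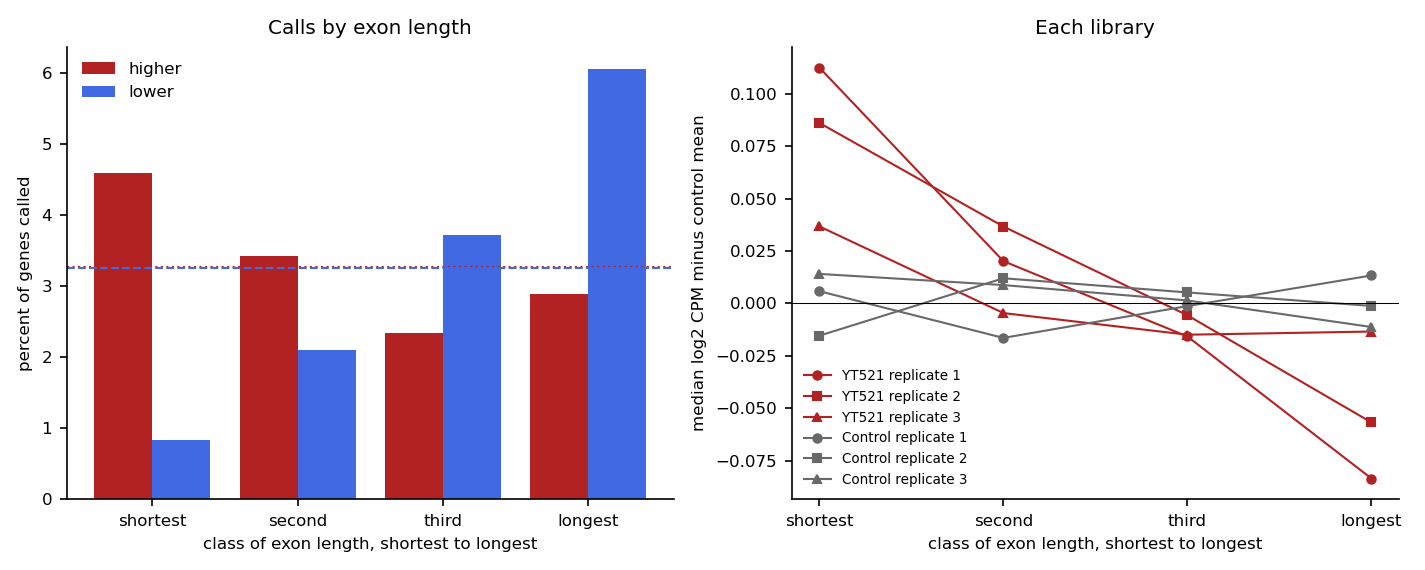
The left panel gives the percent of genes called higher (red) and lower (blue) in YT521 against Control in each class of exon length, with the shares over all genes (3.27% dotted, 3.25% dashed). The right panel gives, for each YT521 library (red) and control library (grey), the median log2 CPM of the class relative to the control mean (for a control library, the mean of the rest), where the YT521 lines run from above 0 to below it.

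The YT521 depletion was also set directly against that of the cytoplasmic reader, CG6422, and against the double depletion of the writer core, by contrasts that leave out the control mean. The control libraries still entered the filter, the scaling and the estimate of the spread in the shared fit. 1077 genes (12.9%) differed between YT521 and CG6422, 558 higher (6.67%) and 519 lower (6.21%) in YT521, and 897 (10.7%) differed between YT521 and the double depletion, 438 higher (5.24%) and 459 lower (5.49%). The number rests in part on single libraries. Without CG6422 replicate 2 the first comparison gave 677 calls, and in a fit of YT521 and CG6422 alone it gave 684 of 8116 genes tested. Without replicate 1, 2 or 3 of the double depletion the second gave 549, 536 and 571. The targeted genes marked the labels. Ythdc1 was lower by -2.21 and -2.22 on the log2 scale, Ythdf was 1.97 higher in YT521 than in CG6422, and Mettl3 and Mettl14 were 3.59 and 3.45 higher in YT521 than in the double depletion. Of the 273 genes called higher than control in YT521, 125 were called further from control in YT521 than in CG6422, 3 lay further in CG6422 and 145 were not called. Against the double depletion these numbers were 98, 12 and 163. Of the 272 genes called lower, 89, 3 and 180 fell into these classes against CG6422, and 78, 8 and 186 against the double depletion. The genes were chosen for their distance from control in YT521, so the lean toward YT521 is set in part by that choice and no test is given for it.

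Several of the leading genes passed both direct tests. mael was lower in YT521 than in CG6422 (-0.63, adjusted p = 8.10e-09) and than in the double depletion (-0.68, adjusted p = 5.92e-09), and its mean in the 5 other depletions was 65.3 to 68.6 CPM, beside 67.4 CPM in the control. Sk2 was lower by -0.60 (adjusted p = 1.69e-06) and -0.57 (adjusted p = 3.70e-06), with 87.7 to 103 CPM in the other depletions. Ube4A (-0.43 and -0.47), Nulp1 (-0.53 and -0.50), Su(fu) (-0.45 and -0.40) and RpS19b (-1.15 and -1.06) passed both tests as well. RpS19b stood at 113 to 142 CPM in the other depletions, above the control in each of them and below it in YT521. These values share the control libraries, and only the 2 direct comparisons were tested.

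Among the genes that rose, drpr was higher in YT521 than in CG6422 (1.15, adjusted p = 3.82e-14) and than in the double depletion (0.51, adjusted p = 4.33e-08). Its mean was 91.4 CPM in CG6422, 134 in Ime4, 144 in CG7818, 142 in the double depletion and 192 in Fl2d, beside 101 in the control and 203 in YT521. gce was higher by 0.77 (adjusted p = 2.08e-09) and 0.50 (adjusted p = 1.73e-06). Drice was higher by 0.55 (adjusted p = 3.01e-08) and 0.35 (adjusted p = 2.33e-05). Esyt2 was higher by 1.57 and 1.07, CG4793 by 1.71 and 1.12, Mmp1 by 1.05 and 0.71, and SKIP by 1.61 and 1.58. In Esyt2 the other depletions lay below the control of 40.2 CPM, at 9.65 to 35.6 CPM, and YT521 lay above it at 67.1. SKIP showed the same order, with 3.42 to 5.07 CPM in the other depletions, 7.61 in the control and 13.3 in YT521.

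Other changes against the control missed at least 1 of the direct tests or lay between the groups. lncRNA:mimi stood at 97.0 CPM in YT521, 90.8 in CG6422 and 99.1 in the double depletion (adjusted p = 0.513 and 0.856). Phb2 did not differ by the test from CG6422 (-0.10, adjusted p = 0.136) and was lower than in the double depletion (-0.28, adjusted p = 0.000218). RabX1 was lower than in the double depletion too (-0.33, adjusted p = 0.000631). crc was at 858 CPM in YT521, 932 in CG6422 and 1045 in the double depletion, the last being higher (-0.28, adjusted p = 0.00369). CG15784 lay between the groups, higher in YT521 than in CG6422 (0.56, adjusted p = 0.000734) and lower than in the double depletion (-0.63, adjusted p = 0.000251). Of the matrix genes, LanB1 was higher in YT521 than in the double depletion (0.30, adjusted p = 0.000739), while Tig did not pass either test (adjusted p = 0.956 and 0.664). A p that misses the threshold does not show that the levels were equal.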

How the data were processed

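Poly(A) RNA was enriched with oligo-dT and made into TruSeq libraries, per the labels' protocols. Each deposited table holds 1 library's raw counts of reads, gene by gene. The submitters' processing notes name STAR 2.4.0h, HTSeq 0.6.1, CASAVA 1.8.4 and DESeq2 1.6.3 as the authors' tools, with build BDGP6. They name neither strand setting nor annotation release, so reads of overlapping genes may not be told apart. Lines that name no gene (reads at several places, 11.0% to 15.0%, outside genes, 1.71% to 1.91%, and ambiguous, 0.77% to 0.89%, in the YT521 and control libraries) were dropped.

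Symbols and coordinates came from Ensembl release 115 (BDGP6.54), with an entry for 17252 of 17558 IDs. All 21 libraries entered one fit with one mean per group (edgeR 4.0.16, R 4.3.3, filterByExpr with a minimum count of 10, TMM scaling), with 14 residual degrees of freedom and a common biological coefficient of variation of 6.37%. The fit was tested on data simulated with the same spread for every gene. That simulation held no library set apart as YT521 replicate 2 is, so it does not cover that case. Counting error alone limits a gene at low CPM more than an abundant one. No pair of libraries of a group lay within sampling noise. DESeq2 1.42.0 was among the 13 alternatives of each comparison.

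The members, the 53 gene lists (961 of 1012 written members and patterns matched) and the rules were chosen with earlier results of these data known. Genes were named by rule: writers and readers, the 15 highest and 15 lowest called genes without overlap whose mean reached 1 CPM, 12 each way whose mean reached 50 CPM, the 10 smallest p, up to 6 called members per list, or up to 2 not called, and 6 each way from the direct comparisons. The text gives part of these 184 genes, and tra, tra2 and msl-2 beside them.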

Additional observations from a re-analysis of the deposited data

How the results depend on the processing

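With 1 library left out, YT521 against Control gave 243 to 492 calls, YT521 against CG6422 677 to 1017 and YT521 against the double depletion 536 to 684, beside 545, 1077 and 897 with all libraries. With only the groups compared in the fit, YT521 against CG6422 gave 684 calls. The causes were not tested. Other settings kept the 3 counts within 1.5 times, at 536 to 738, 1031 to 1203 and 894 to 1037. For YT521 against Control, DESeq2 called 623 genes, the fit without a low count filter 692 and the fit without mitochondrially encoded genes 562. The log2 fold change of Ythdc1 lay between -2.33 and -2.10 in all 13 alternatives, and no named gene turned its direction past the threshold. The data did not settle whether replicate numbers pair the samples, and the main fit used no replicate block. In no comparison did all 3 pairs with the same number correlate above 0.1 in their deviations from the group means. That bound was set by choice. The correlations were 0.172, 0.10 and -0.068 with Control, 0.111, 0.233 and 0.0969 with CG6422 and 0.0862, 0.0909 and 0.142 with the double depletion. With the double depletion every library correlated best with its own number, which is a hint from the data and not the design. With the replicate number as a block the calls were 738 (543 of the 545 among them), 1203 and 1030. Depth limits genes of low level most, and 177 tested genes without an annotation entry could not be named.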

Other observations

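Some called genes lie next to each other. wrapper, CG13506 and babos follow one another on 2R, and their log2 fold changes in YT521 against Control were 2.38, 1.10 and 0.74. CG13506 and babos share exon bases in the annotation, and with the strand setting not given their counts cannot be told apart. babos stood at 82.7, 89.4 and 69.4 CPM against 42.8, 45.6 and 56.4 CPM in the control (SE 0.11, adjusted p = 0.000307). Its mean was 76.1 CPM in CG6422 and 77.2 CPM in Fl2d. Nulp1 and Arp3 abut on opposite strands of 3L, with log2 fold changes of -0.45 and -0.16. These neighbours were noticed after the values were seen.

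A few secreted and neuronal genes outside the groups described were also called in every alternative. Obp18a, of the odorant-binding protein family, rose from 50.3 ± 4.63 to 77.0 ± 9.65 CPM (0.61, adjusted p = 0.000172), and its mean in the 5 other depletions was 47.6 to 52.1 CPM. nemy, a cytochrome b561 protein known from memory mutants, rose from 47.9 ± 5.08 to 74.3 ± 6.16 CPM (0.64, adjusted p = 4.55e-05), beside 22.7 CPM in Fl2d. Syx1A, the syntaxin of synaptic vesicle fusion, fell from 61.9 ± 0.681 to 45.9 ± 1.8 CPM (-0.43, adjusted p = 0.000928). Tollo, a Toll-related receptor, fell from 22.3 ± 0.598 to 13.6 ± 1.47 CPM (-0.72, adjusted p = 6.52e-05).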
